A study of Mus musculus with 10 samples.

Results

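The genes described here encode the proteins of the cytosolic ribosome. They were taken from the array annotation as the genes whose probe sets carried a single symbol beginning with Rpl or Rps followed by a digit, together with Rplp0, Rplp1, Rplp2 and Rpsa; the Rps6k kinases and annotated pseudogenes were left out. This rule gave 61 genes, measured by 217 probe sets, out of 16401 genes with a probe set of 1 symbol. Each gene was represented by its probe set with the highest mean over all libraries. Of the 61, 54 encode ribosomal proteins, 5 are paralogs of another ribosomal protein gene (Rpl7l1, Rpl10l, Rpl32l, Rps4l and Rps27l), and 2 match the symbol pattern without encoding a ribosomal protein (Rps19bp1 and Rps23rg1). Ribosomal protein genes whose probe sets all carried several symbols were not analysed here. One member, the paralog Rpl10l, lay among the lowest 30% of genes by mean level, which were left out of the tests, so 60 members were tested among 11480 genes.

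The study asked how loss of WDR5 or of KAT2B alters gene expression in liver cells with and without glucagon. Primary hepatocytes from male C57BL6/J mice aged 10 weeks were transduced for 72 h at 2 to 4 plaque-forming units per cell with adenovirus carrying a non-specific shRNA (shNS), an shRNA against Wdr5 (shWDR5) or an shRNA against Kat2b (shKAT2B). They then received PBS or 100 nM glucagon for 90 min, and total RNA was hybridised to Affymetrix arrays. The 10 libraries, one array each, comprised 2 of shNS with PBS, 2 of shNS with glucagon, 1 of shWDR5 with PBS, 2 of shWDR5 with glucagon, 1 of shKAT2B with PBS and 2 of shKAT2B with glucagon. All cells, controls included, were virus-transduced cultures, and each library pooled RNA from 3 dishes. The labels do not say whether replicate libraries came from separate mice, so p-values measure the spread between these pools, which may be technical.

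A ribosome has a small subunit, which reads the message, and a large subunit, which joins amino acids and carries a flexible stalk of P proteins that recruits translation factors. Cells make ribosomal proteins in near-equal amounts, and their messages share a pyrimidine tract at the start through which mTORC1 and LARP1 set their translation. Hepatocytes, which secrete most plasma proteins, hold large numbers of ribosomes. WDR5 is a scaffold subunit of the MLL and SET1 complexes that methylate histone H3, and it has been reported in several cell types to bind the promoters of a subset of ribosomal protein genes. KAT2B, also called PCAF, is a lysine acetyltransferase of transcriptional coactivator complexes. Glucagon, secreted in fasting, acts on hepatocytes through cyclic AMP.

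Both targeted messages were low in their own arm. Wdr5 had a log2 intensity of 8.19 to 8.40 in the shWDR5 libraries and 9.98 to 10.07 in the other arms, and Kat2b 6.60 to 6.93 in the shKAT2B libraries and 9.40 to 9.59 elsewhere. The hepatocyte markers Alb and Trf had mean log2 intensities of 13.64 and 13.86, whereas Cps1 (7.42) and Cyp2e1 (6.76) lay low on the scale of the arrays. Median intensity was between 282.1 and 298.2 in all libraries. The libraries fell into 2 sets by the main component of their deviations from the fitted values of the genes outside the members, which held 78% of that residual variance. The first set held the A libraries of both shNS groups and of each knockdown under glucagon, and the second set held the other 6, among them the lone PBS libraries of both knockdowns. The main comparisons of the knockdowns with shNS and with each other are therefore also given with this library set as a term in the fit. The sets were drawn from the residuals of these same libraries. Fits that use them therefore leave less residual spread by construction, and their p-values can be too small and their counts too high. The sets differed in the members themselves: 37 of 60 were higher and 4 lower in the second set at a limma adjusted p below 0.05, in sets defined from these same libraries, with a median difference of 0.14, against 17.5% higher and 38.8% lower and a median of -0.07 over all genes tested.

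How far the members varied over the 10 libraries ranged from a standard deviation of 0.042 on the log2 scale in Rplp0 to 0.532 in Rps23rg1. Rplp0, the stalk base, read 13.74, 13.64, 13.70 and 13.70 with shNS (PBS A, PBS B, glucagon A, glucagon B), 13.72, 13.72 and 13.65 with shWDR5 (PBS, glucagon A, glucagon B), and 13.70, 13.74 and 13.78 with shKAT2B in that order. All 3 arms overlapped in this gene. Among the ribosomal proteins proper, Rps21, of the small subunit, varied most (standard deviation 0.356), at 10.20, 10.93, 10.19 and 10.93 with shNS, 11.02, 10.50 and 10.95 with shWDR5, and 11.06, 10.39 and 11.02 with shKAT2B. Its 4 first-set libraries were the lowest of the 10, and the second set was higher by 0.64. Rps12 followed the same order, at 11.77, 12.48, 11.82 and 12.49, then 12.55, 12.04 and 12.60, then 12.49, 11.88 and 12.47. The 4 members lower in the second set were Rps19 (-0.26), Rpl12 (-0.17), Rpl7l1 (-0.15) and Rps4x (-0.08).

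With shWDR5, a subset of ribosomal protein genes was lower than with shNS in both subunits. At an adjusted p below 0.05, from limma across all genes tested with arm and treatment in the model, 12 of 60 members (20%) fell and 0 rose, where 6.17% of all genes tested fell and 4.69% rose. At an unadjusted p below 0.05, 20 members were lower and 3 higher, against 13.9% and 11.9% of all genes. The changes were small, from 1.13-fold (Rps10) to 1.40-fold (Rpl37a). The median difference over the 60 members was -0.07 on the log2 scale, against -0.01 over all genes, and 35 members lay below 0, against 52.9% of all genes. Members thus lay on both sides of 0. Beside these values, the summed intensity of 9 measured hepatocyte markers was 39264 to 42649 in the shWDR5 libraries and 42639 to 49402 in the shNS libraries. Of 8 tested markers 2, Alb and Trf, fell. With the library set as a term 4 of 8 fell, where 18.1% of all genes tested fell. In such bulk samples fewer cells of a type and less RNA per cell cannot be told apart.

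**Figure D1:**
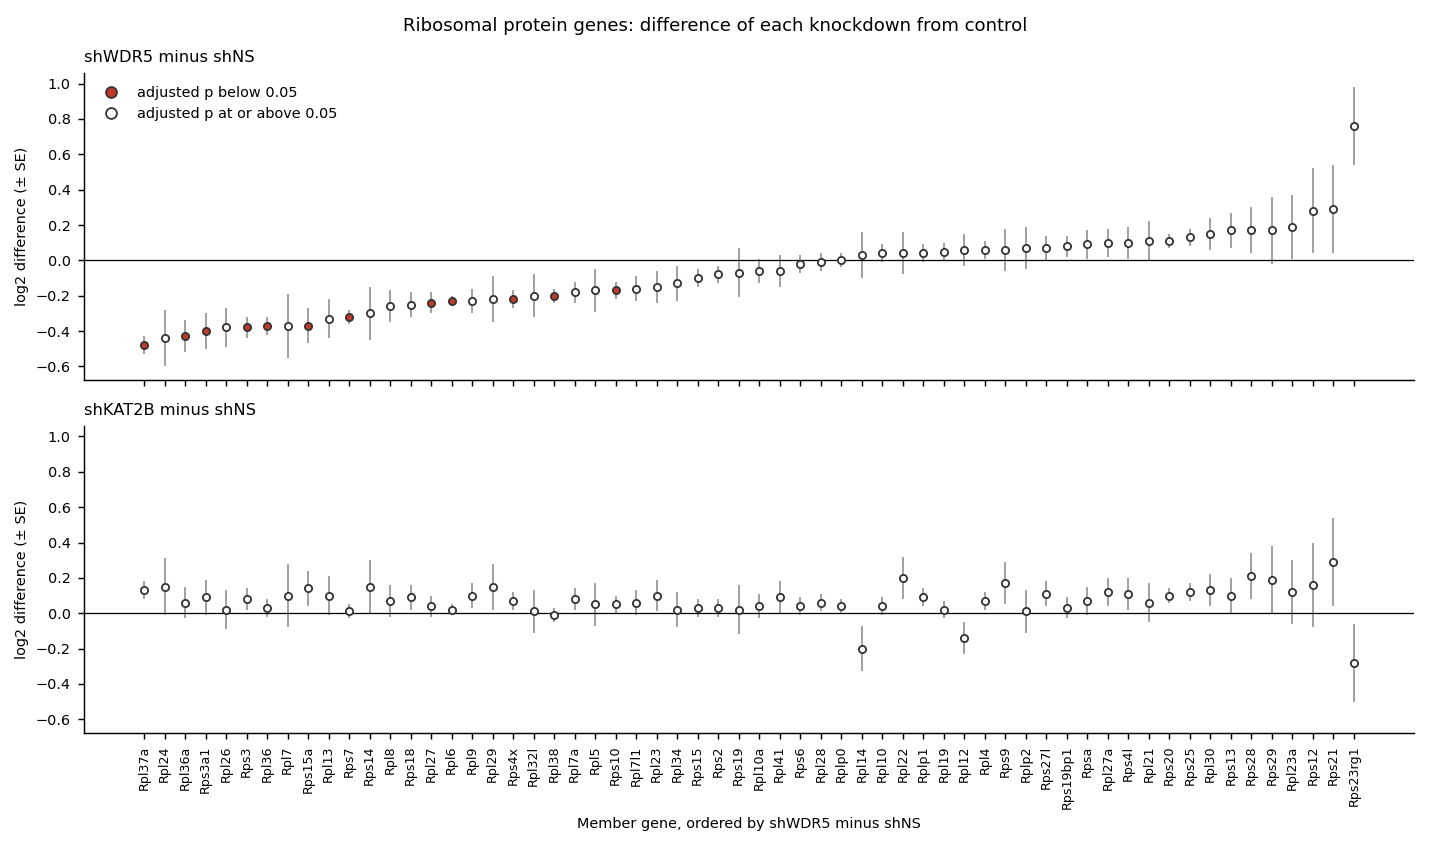
Log2 difference from shNS, with its standard error, of each of the 60 tested members with shWDR5 (upper panel) and shKAT2B (lower panel), in the order of the upper panel; filled points have an adjusted p below 0.05. The 12 filled points with shWDR5 run from -0.48 to -0.17, and no point of the lower panel is filled.

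Of the 21 small subunit genes, 6 fell and 0 rose, with a median difference of -0.07, where 6.17% of all genes tested fell and 4.69% rose. Values below are log2 intensities, given for shNS in the order PBS A, PBS B, glucagon A and glucagon B, and for each knockdown in the order PBS, glucagon A and glucagon B. Rps7, whose product is also known to bind the p53 regulator Mdm2, read 12.85, 12.86, 12.89 and 12.91 with shNS, 12.56, 12.56 and 12.56 with shWDR5, and 12.88, 12.92 and 12.86 with shKAT2B. The 3 shWDR5 libraries lay below all 7 others, and the fitted difference from shNS was -0.32 ± 0.04 (SE, n = 3 and 4; limma adjusted p = 0.00215). Rps3, a protein of the messenger RNA entry channel, read 12.13, 12.15, 12.10 and 12.24 with shNS, 11.89, 11.72 and 11.72 with shWDR5, and 12.19, 12.21 and 12.30 with shKAT2B. Again no shWDR5 library reached the lowest of the others, and the difference was -0.38 ± 0.06 (limma adjusted p = 0.00754).

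Rps3a1, the mouse counterpart of RPS3A, read 9.23, 9.49, 9.33 and 9.62 with shNS, 9.01, 9.06 and 9.01 with shWDR5, and 9.47, 9.45 and 9.64 with shKAT2B. Its shWDR5 libraries were again the lowest, although the shNS libraries spread widely, and the difference was -0.40 ± 0.10 (limma adjusted p = 0.0319). Rps15a read 8.93, 9.04, 8.99 and 9.21 with shNS against 8.53, 8.65 and 8.90 with shWDR5, a difference of -0.37 ± 0.10 (limma adjusted p = 0.0443). In this gene the highest shWDR5 library stood just below the lowest shNS library. Rps4x, the X-linked form of the gene, read 12.44, 12.36, 12.48 and 12.45 against 12.21, 12.30 and 12.15, without overlap (-0.22 ± 0.05, limma adjusted p = 0.031). Rps10 read 13.14, 13.03, 13.14 and 13.13 against 12.90, 13.04 and 12.90 (-0.17 ± 0.05, limma adjusted p = 0.0436). Rps10 was the only one of the 12 in which the arms overlapped, since the first shWDR5 glucagon library lay above the second shNS PBS library.

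Of the 30 large subunit genes outside the stalk, 6 fell and 0 rose, with a median difference of -0.16. Of all genes tested 6.17% fell and 4.69% rose. Rpl37a, which encodes a small zinc-binding protein, had the largest difference of the 12. It read 12.42, 12.29, 12.33 and 12.30 with shNS, 11.86, 11.93 and 11.77 with shWDR5, and 12.42, 12.48 and 12.48 with shKAT2B. The gap between the highest shWDR5 library and the lowest shNS library was wider than the spread within either arm, and the difference was -0.48 ± 0.05 (limma adjusted p = 0.00215). Rpl36 read 12.46, 12.50, 12.48 and 12.57 with shNS, 12.10, 12.21 and 12.09 with shWDR5, and 12.55, 12.56 and 12.49 with shKAT2B (-0.37 ± 0.05 for shWDR5 minus shNS, limma adjusted p = 0.00323). Rpl6 read 13.17, 13.19, 13.18 and 13.18 with shNS, 12.95, 12.92 and 12.97 with shWDR5, and 13.22, 13.20 and 13.17 with shKAT2B. The difference of Rpl6 was among the smaller ones, -0.23 ± 0.03, but its libraries varied little (limma adjusted p = 0.00512).

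Rpl36a, an X-linked gene, read 12.95, 13.12, 12.95 and 13.18 with shNS and 12.71, 12.43 and 12.70 with shWDR5 (-0.43 ± 0.09, limma adjusted p = 0.0175). Rpl38, known from the Tail-short mouse for its part in the translation of Hox messages, read 13.10, 13.20, 13.16 and 13.21 against 12.90, 13.01 and 13.01 (-0.20 ± 0.04, limma adjusted p = 0.0176). Rpl27 read 12.02, 12.04, 12.03 and 12.07 against 11.83, 11.90 and 11.68 (-0.24 ± 0.06, limma adjusted p = 0.0321). In all 3 of these genes every shWDR5 library lay below every shNS library. Over the whole set, 17 of 60 members had all shWDR5 libraries below all shNS libraries, against 12.4% of all genes tested, and 2 had them all above, against 11.8%. The 2 higher members were Rps20 and Rps25, whose differences of 0.11 ± 0.04 (limma adjusted p = 0.102) and 0.13 ± 0.05 (limma adjusted p = 0.153) did not pass.

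**Figure D2:**
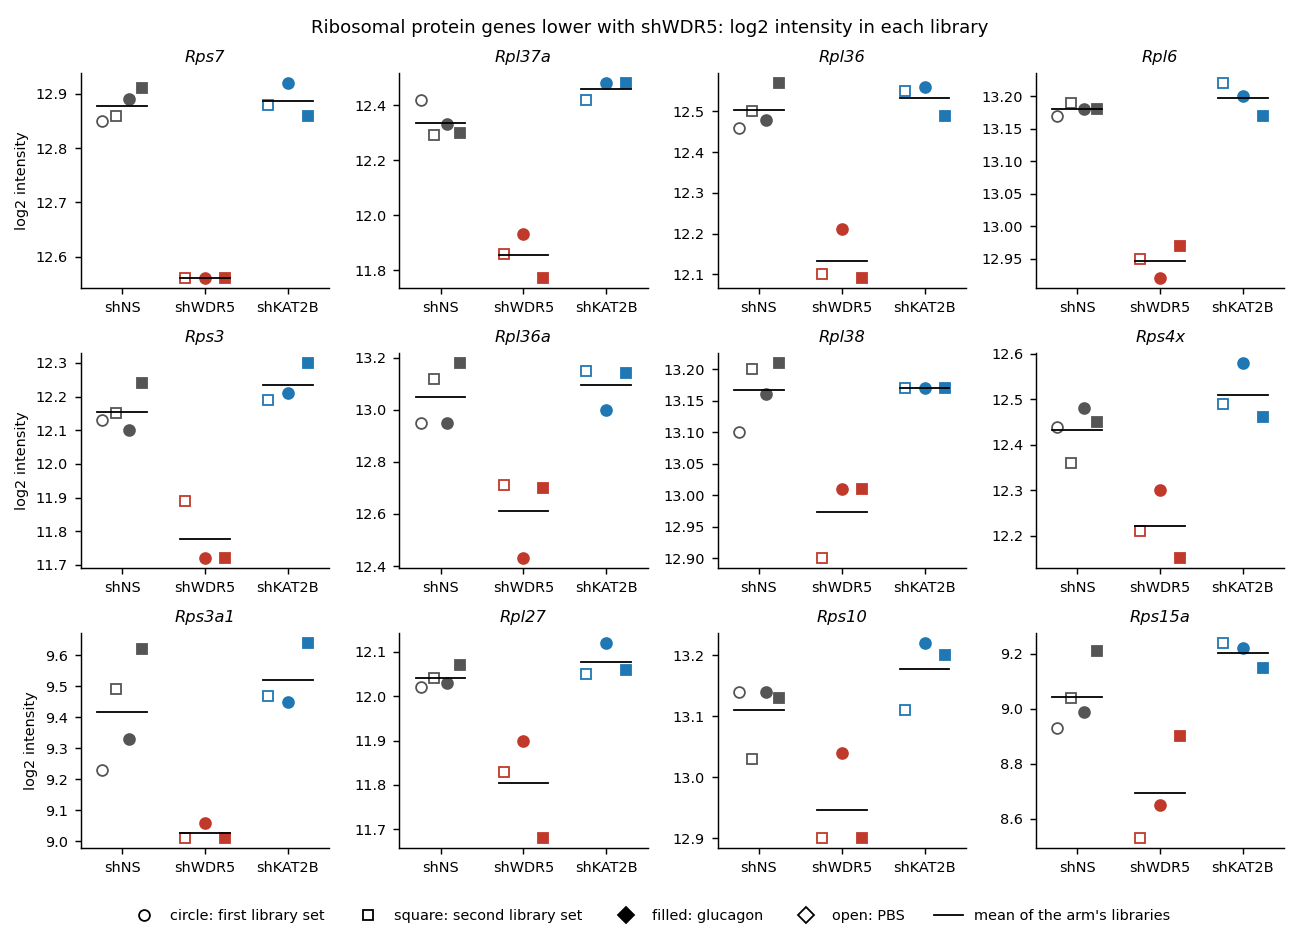
Log2 intensity of the 12 members that fell with shWDR5 in each of the 10 libraries, by arm; fill marks treatment, shape marks library set, and the line is the mean of the arm's libraries. Each panel has its own vertical scale, which does not start at 0. In 11 panels the 3 shWDR5 libraries lie below the 4 shNS libraries, and in Rps10 they overlap.

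The calls of Rpl37a, Rps3, Rpl36 and Rps7 passed in each of 22 alternative fits. The number of members called depended on how the library sets were treated and on single libraries. Without the shWDR5 PBS library 5 members were called lower, and without shNS glucagon A, shNS glucagon B or the shKAT2B PBS library 7 were. Shares of all genes called with a library left out are not given here, so these counts are not a result about the members alone. With the replicate letter as a block, 21 fell and 7 rose (15.7% and 11% of all genes tested), and the 21 included all 12. The lone PBS libraries of both knockdowns are lettered A, so this block groups them with the first set although they lie in the second.

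With the library set as a term, 30 of 60 members fell and 6 rose, against 18.1% and 18.8% of all genes tested, and the 30 included all 12. Fitted within the second set alone, 28 fell and 1 rose (14.8% and 13.1% of all genes tested). Because the sets were defined from these libraries, p-values of both fits can be too small. Of the members that passed in both of these fits but not without regard to the sets, Rpl24, the gene mutated in the Belly spot and tail mouse, showed how far the sets differed. It read 11.07, 11.64, 11.18 and 11.62 with shNS and 11.09, 10.80 and 10.87 with shWDR5, so the second-set libraries of shNS stood well above the first-set ones and the arms overlapped. Its difference was -0.44 ± 0.16 (limma adjusted p = 0.119) without the library set, -0.52 ± 0.07 (limma adjusted p = 0.000111) with it and -0.65 ± 0.07 (limma adjusted p = 6.88e-05) in the second set alone. Rpl7 (-0.46 ± 0.05), Rpl26 (-0.42 ± 0.06), Rps14 (-0.38 ± 0.04) and Rpl13 (-0.38 ± 0.04) also passed with the term and in the second set alone, but not in the fit of arm and treatment.

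The subunits were not alike in the fit with the library set, although the difference between them was not tested. In the large subunit 19 of 30 genes fell and 0 rose, with a median of -0.21. In the small subunit 10 of 21 fell and 5 rose, with a median of -0.03. Beside both counts, 18.1% of all genes tested fell in that fit and 18.8% rose. The 5 that rose, Rps12, Rps13, Rps20, Rps21 and Rps25, had differences of 0.10 to 0.16. In the second set alone none of these 5 passed, with differences of 0.05 to 0.10 (limma adjusted p = 0.171 to 0.489). The stalk genes passed neither with nor without the library set. Without it, Rplp0, which anchors the stalk, differed by 0.00 ± 0.04, Rplp1 by 0.04 ± 0.05 and Rplp2 by 0.07 ± 0.12.

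Comparing only libraries of the same treatment and the same library set gives 3 pairs of shWDR5 with shNS. The median over the 60 members was -0.07 in the first-set glucagon pair, -0.13 in the second-set glucagon pair and -0.09 in the second-set PBS pair. In all 3 pairs 31 members were lower, against 28% of all genes tested, and 11 were higher, against 31%. For shKAT2B the corresponding medians were 0.07, 0.02 and 0.03. There 3 members were lower in all 3 pairs (29.6% of all genes) and 25 higher (35.2%).

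**Figure D3:**
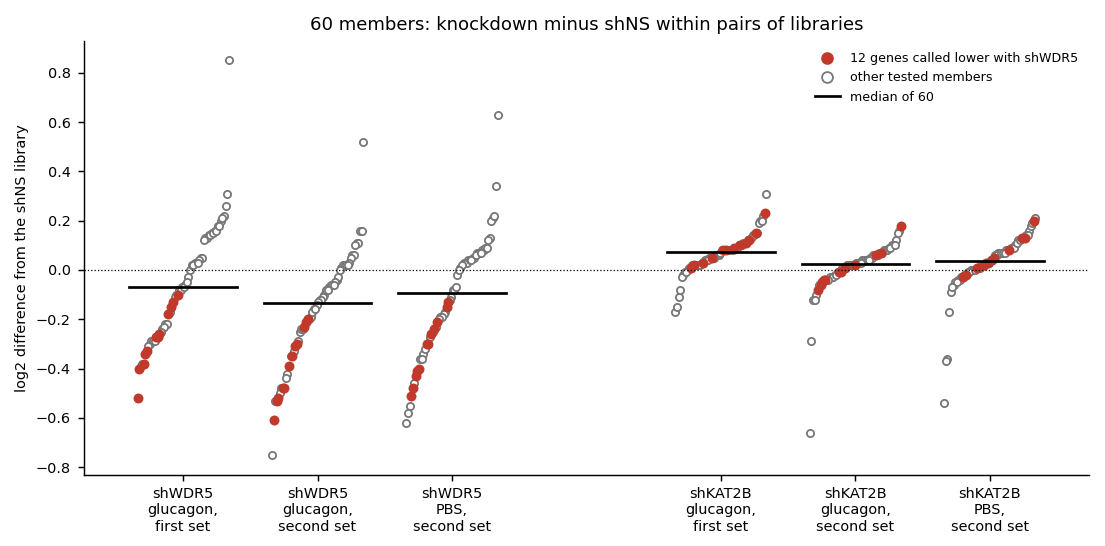
Log2 difference of each of the 60 tested members from the shNS library of the same treatment and library set, for the 3 pairs of each knockdown; filled points are the 12 members called lower with shWDR5, and the line is the median of the 60. The filled points, chosen from the fit to these same libraries, lie below 0 in all 3 shWDR5 pairs; in the shKAT2B pairs they lie above 0 in the first set and on both sides of 0 in the second.

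The probe sets that did not represent a gene gave a further reading of the same samples. Of the 12 members that fell, 8 had 25 other probe sets. Of these, 25 of 25 were lower with shWDR5, with differences of -0.43 to -0.17 and a median of -0.25. The 12 were called lower from these same libraries, so their other probe sets are not an independent check. Rpl36 had 8 of them, between -0.43 and -0.34, and Rps4x had 4, with a median of -0.25. Of the 48 members not called, 31 had 131 other probe sets, of which 48 were lower, with a median of 0.05. Over all annotated probe sets 9349 of 17873 were lower. Rps12 had 13 other probe sets with differences between 0.26 and 0.29, none of them below 0, and Rpl13 had 8, all below 0. Ribosomal protein genes have many processed pseudogenes of nearly the same sequence, so the probe sets of a gene can read the same message and are not independent, and no probe set can be assigned to 1 locus with certainty.

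**Figure D4:**
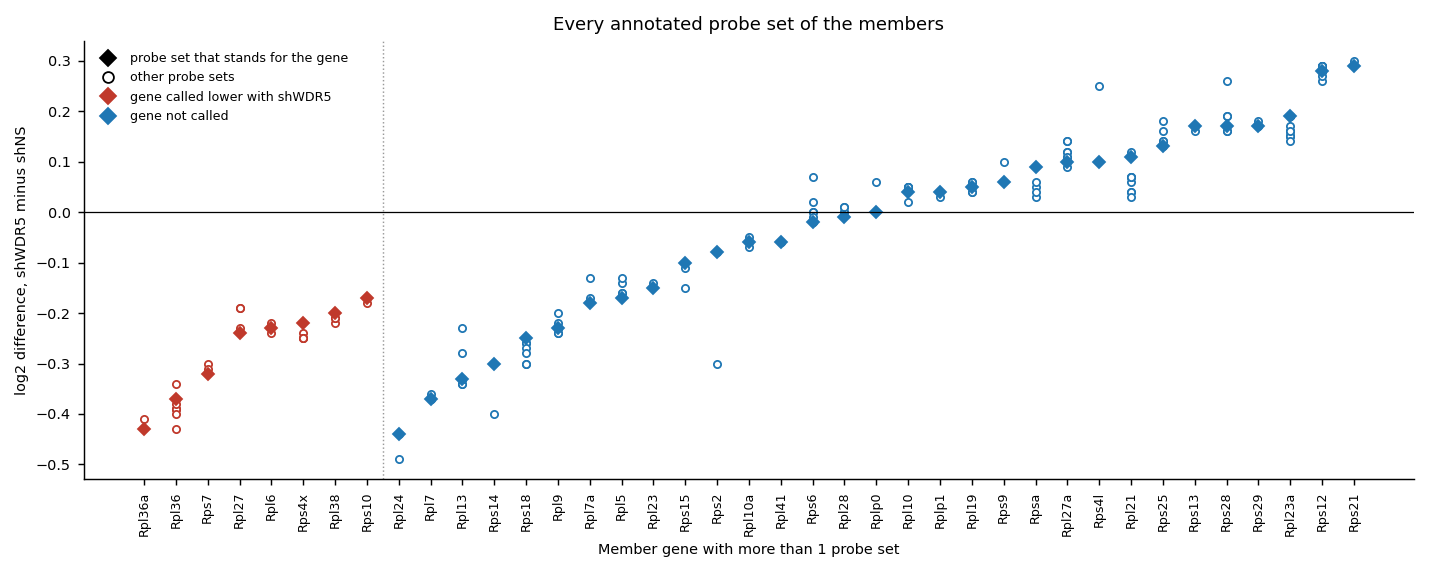
Log2 difference, shWDR5 minus shNS, of every annotated probe set of the tested members with more than 1; diamonds are the probe sets that represent the gene and circles the others. Left of the dotted line are the 8 genes with other probe sets that were called lower from these same libraries. There all 25 circles lie below 0.

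The promoters of the members were examined because WDR5 is known to act at promoters. RefSeq promoters (build GRCm38.p6, 250 bases before to 50 bases after the start) were at hand for 49 of the 61 members, 11 of them among the 12 that fell. The letters CTTCCG or their complement CGGAAG, the core of the sites bound by ETS factors such as GABP, stood in 9 of these 11 (81.8%), in 24 of 37 members tested and not called (64.9%), and in 17.2% of all 27025 promoters. The shares of members that fell and of members not called were not tested against each other. The E-box letters CACGTG, bound by MYC and its partners, were in 0 of 11, in 4 of 37 (10.8%) and in 7.24% of all promoters. The letters TATAAA were in 1 of 11, in 4 of 37 and in 14.2%, and the letters AAGATGGC, found in sites of the factor YY1, in 1 of 11, in 1 of 37 and in 2.88%, each on either strand. A run of at least 8 pyrimidines within 70 bases before to 30 after the start was present in 5 of 11 (45.5%), in 21 of 37 (56.8%) and in 36.3% of all promoters. A match in letters does not show that a factor was bound.

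Printed here are the promoters of the 6 members with an entry and the smallest p for shWDR5, and of Rplp0, Rpl28 and Rps6, whose differences from shNS were nearest to 0. Each runs from 70 bases before to 30 bases after the RefSeq start, 5′ to 3′ on the strand of the gene, with CTTCCG or CGGAAG in capitals. In GRCm38.p6 they lie at chr12:28635924-28636023 on the minus strand (Rps7), chr1:72711190-72711289 on the plus strand (Rpl37a), chr5:121204431-121204530 on the plus strand (Rpl6), chr7:99483680-99483779 on the minus strand (Rps3), chrX:134585584-134585683 on the plus strand (Rpl36a), chr11:114668510-114668609 on the plus strand (Rpl38), chr5:115559397-115559496 on the plus strand (Rplp0), chr7:4792895-4792994 on the plus strand (Rpl28) and chr4:86857338-86857437 on the minus strand (Rps6).
Rps7, lower with shWDR5: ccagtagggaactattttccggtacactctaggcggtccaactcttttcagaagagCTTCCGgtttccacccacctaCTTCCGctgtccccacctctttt
Rpl37a, lower with shWDR5: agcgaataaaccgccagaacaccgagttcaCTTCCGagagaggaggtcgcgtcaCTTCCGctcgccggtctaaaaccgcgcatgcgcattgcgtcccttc
Rpl6, lower with shWDR5: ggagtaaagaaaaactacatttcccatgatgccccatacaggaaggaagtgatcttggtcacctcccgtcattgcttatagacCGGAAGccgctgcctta
Rps3, lower with shWDR5: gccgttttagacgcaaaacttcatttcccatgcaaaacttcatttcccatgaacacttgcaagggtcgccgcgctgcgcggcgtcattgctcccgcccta
Rpl36a, lower with shWDR5: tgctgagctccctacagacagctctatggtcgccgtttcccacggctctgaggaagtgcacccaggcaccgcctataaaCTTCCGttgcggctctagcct
Rpl38, lower with shWDR5: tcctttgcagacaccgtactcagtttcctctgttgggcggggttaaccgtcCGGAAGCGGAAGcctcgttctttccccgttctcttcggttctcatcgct
Rplp0, nearest to 0: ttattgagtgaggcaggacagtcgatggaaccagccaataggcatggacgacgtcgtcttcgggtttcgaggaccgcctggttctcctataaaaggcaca
Rpl28, nearest to 0: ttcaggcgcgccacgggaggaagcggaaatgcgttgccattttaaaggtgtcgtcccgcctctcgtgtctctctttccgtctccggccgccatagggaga
Rps6, nearest to 0: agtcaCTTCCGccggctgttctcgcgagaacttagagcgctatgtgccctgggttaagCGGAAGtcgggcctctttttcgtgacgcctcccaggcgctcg
Within these 100 bases the letters occurred 2 times in Rps7, Rpl37a and Rpl38, 1 time in Rpl6 and Rpl36a and 0 times in Rps3. Among the 3 genes nearest to 0 they occurred 2 times in Rps6 and 0 times in Rplp0 and Rpl28.

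With shKAT2B no ribosomal protein gene passed. In limma 0 of 60 members fell and 0 rose, against 8.95% and 6.66% of all genes tested, and at an unadjusted p below 0.05 the counts were 0 lower and 3 higher, against 15.4% and 13.6% of all genes. The differences were small and mostly above 0: the median was 0.07, and 56 of 60 lay above 0, against 51.8% of all genes. Both this median and that with shWDR5 were smaller in size than 0.09, the standard deviation of the members' median between replicate libraries, which includes the shift between the library sets. The medians with the library set as a term were -0.10 with shWDR5 and 0.05 with shKAT2B, and in the second set alone -0.12 and 0.03. The smallest p above 0 belonged to Rps20 (0.10 ± 0.04, limma adjusted p = 0.101), Rps25 (0.12 ± 0.05, limma adjusted p = 0.144) and Rpl37a (0.13 ± 0.05, limma adjusted p = 0.167). Those below 0 belonged to Rpl12 (-0.14), Rpl14 (-0.20) and Rps23rg1 (-0.28), none of which passed (limma adjusted p = 0.356, 0.362 and 0.467). In 2 members, Rps20 and Rps25, all shKAT2B libraries lay above all shNS libraries (13.2% of all genes tested). Those are also the 2 members in which all shWDR5 libraries lay above shNS, and both comparisons used the same 4 shNS libraries.

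With the library set as a term, 2 members fell with shKAT2B (Rpl14, -0.26 ± 0.08, and Rps23rg1, -0.39 ± 0.10) and 5 rose (Rpl37a, Rps9, Rps20, Rps21 and Rps25, by 0.10 to 0.16), against 20.1% and 21.5% of all genes tested. In the second set alone 2 fell and 1 rose (18.5% and 18.6% of all genes tested). With the replicate letter as a block, 4 members rose and 0 fell (12.6% and 16.9% of all genes tested). The summed intensity of the hepatocyte markers was 36228 to 40568 with shKAT2B, below the range with shNS. Of 8 tested markers 3 fell, with a median difference of -0.48, where 8.95% of all genes tested fell. All 8 fell when the library set was a term, with a median of -0.52.

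Set directly against each other, the arms differed in many members. With shKAT2B 19 of 60 members were higher than with shWDR5 and 1 was lower, against 11.2% and 11.5% of all genes tested, and the median difference was 0.12. All 12 members that fell with shWDR5 were among the 19, a comparison that shares the shWDR5 libraries with the one above. Among the 19, the largest differences were those of Rpl37a (0.61 ± 0.06, limma adjusted p = 0.000276), Rpl24 (0.59 ± 0.17, limma adjusted p = 0.0343), Rps15a (0.51 ± 0.10, limma adjusted p = 0.00775), Rps3a1 (0.49 ± 0.10, limma adjusted p = 0.00923) and Rpl36a (0.48 ± 0.09, limma adjusted p = 0.00603). Rps3 (0.46), Rpl13 (0.43), Rpl36 (0.40), Rpl26 (0.39) and Rps18 (0.34) followed among the 19. In 26 members all 3 shKAT2B libraries lay above all 3 shWDR5 libraries, against 18.7% of all genes tested. With the library set as a term 31 members were higher and 4 lower (25.9% and 24.6% of all genes tested), in the second set alone 30 and 2 (24% and 21.3%), and with the replicate block 25 and 2 (18.1% and 17.9%). Without the shKAT2B PBS library the number of members higher fell to 11, and without the shWDR5 PBS library to 12. The shares of all genes called in those fits are not given here.

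The member lower with shKAT2B than with shWDR5 was Rps23rg1, a gene derived from a copy of Rps23 whose product is not a ribosomal protein. It read 7.82, 8.33, 7.48 and 8.36 with shNS, 8.96, 8.32 and 8.88 with shWDR5, and 7.80, 7.55 and 7.71 with shKAT2B. The shWDR5 libraries all lay above the shKAT2B libraries, and the shNS libraries overlapped with both. The difference between the knockdowns was -1.04 ± 0.24 (limma adjusted p = 0.0134), while the difference of shWDR5 from shNS, 0.76 ± 0.22, missed the threshold (limma adjusted p = 0.062). That difference passed with the library set as a term (0.65 ± 0.10, limma adjusted p = 0.000383) and in the second set alone (0.57 ± 0.08, limma adjusted p = 0.000499). Without the shWDR5 PBS library, the second shWDR5 glucagon library or the shKAT2B PBS library the call between the knockdowns was lost, with an adjusted p of up to 0.0676.

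None of the 4 tested paralogs passed in either knockdown against shNS in the fit of arm and treatment. With shWDR5 Rpl7l1 differed by -0.16 (limma adjusted p = 0.19), Rpl32l by -0.20 (limma adjusted p = 0.346), Rps4l by 0.10 (limma adjusted p = 0.538) and Rps27l, a p53-responsive copy of Rps27, by 0.07 (limma adjusted p = 0.599). Rpl7l1 passed with the library set as a term (-0.13 ± 0.04, limma adjusted p = 0.0178). Of 22 alternative fits with shWDR5, Rpl7l1 passed in 3, Rpl32l in 1, the second set alone (-0.37), and Rps4l and Rps27l in 0. Rps4l and Rps4x, whose products are near relatives, had differences of opposite sign, of which that of Rps4x passed. Rpl10l was measured at 6.40 to 7.12 in the libraries of shNS and shWDR5 and was not tested.

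Glucagon for 90 min left the members without a call. In limma 0 of 60 fell and 0 rose, where 0.244% of all genes tested fell and 0.679% rose, and 0 members had an unadjusted p below 0.05. Differences between glucagon and PBS ran from -0.23 to 0.10 with a median of -0.02. The smallest p belonged to Rpl14 (-0.23), Rps9 (-0.13) and Rps23rg1 (-0.22) below 0 and to Rps10 (0.07), Rpl38 (0.05) and Rps15a (0.10) above 0, each with an adjusted p of 0.962. With the library set as a term the median was 0.01, and in the second set alone 0. The lone PBS library of each knockdown is of the second set, whereas its glucagon libraries span both. The medians below for the knockdowns therefore include the difference between the sets. Within the arms, the medians over the members were 0.03 with shNS, -0.07 with shWDR5 and -0.05 with shKAT2B, with 0 members called and 0 at an unadjusted p below 0.05 in each arm. Of all genes tested, 0.192%, 0.0871% and 0.061% rose in these arms and 0% fell.

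The effect of shWDR5 was also read under each treatment from a fit of the 6 groups, which leaves 4 degrees of freedom. Under glucagon the median member difference was -0.09 and in PBS -0.02. No member was called in either case, where 0.0436% and 0.00871% of all genes tested fell, but 16 members were lower at an unadjusted p below 0.05 under glucagon and 7 in PBS (7.2% and 4.81% of all genes). The single shWDR5 PBS library belongs to the second set, whereas the shNS PBS libraries span both, so the PBS value includes the difference between the sets; against the shNS PBS library of its own set the median was -0.09. Rpl37a differed by -0.46 under glucagon and -0.49 in PBS, Rps7 by -0.34 and -0.29, and Rpl36 by -0.37 and -0.38. Rps3 differed by -0.45 and -0.25, and Rpl36a by -0.50 and -0.32. The interaction of shWDR5 with glucagon, which tests such differences, was called in 0 members and in 0% of all genes tested, with 0 members at an unadjusted p below 0.05. Over the 6 groups together, 1 member, Rpl37a, varied (limma F-test, adjusted p = 0.0363), against 2.69% of all genes tested, and 11 members had an unadjusted p below 0.05, against 18.6% of all genes.

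The members include proteins with roles outside the ribosome. Of 6 proteins listed for binding Mdm2 when ribosome assembly is disturbed, 5 were measured: Rpl5, Rpl23, Rpl26, Rps7 and Rps14. With shWDR5 all 5 lay below 0 with a median of -0.30, and 1, Rps7, passed, where 6.17% of all genes fell. The list may not hold every member that binds Mdm2, so these counts cover the listed genes only. With the library set as a term all 5 passed, with a median of -0.32, where 18.1% of all genes fell. Of 9 genes listed for Diamond-Blackfan anaemia, a disorder of red cell production caused by loss of 1 copy of a ribosomal protein gene, 4 were measured: Rpl5, Rps7, Rps10 and Rps19. Rps7 and Rps10 fell with shWDR5, where 6.17% of all genes tested fell, whereas Rpl5 (-0.17 ± 0.12) and Rps19 (-0.07 ± 0.14) did not pass. This list too may be incomplete, so the 4 are not a count of all such genes among the members.

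Other genes of ribosome supply did not follow the members. Of 52 tested ribosome biogenesis factors, which make and process ribosomal RNA in the nucleolus, 0 fell and 15 rose with shWDR5, with a median of 0.24. Of all genes tested 6.17% fell and 4.69% rose. Those 15 included Dkc1 (0.49 ± 0.10), the pseudouridine synthase, Tsr1 (0.44 ± 0.06), an assembly factor of the small subunit, and Gnl3 (0.38 ± 0.09), or nucleostemin. The counts became 40 higher and 0 lower when the library set was a term (18.8% and 18.1% of all genes tested). With shKAT2B 9 of the 52 fell and 1 rose (8.95% and 6.66% of all genes tested), with a median of -0.11. Dkc1 (-0.68 ± 0.10) and Nol10 (-0.57 ± 0.06) were among those that fell. Adding the library set gave 22 lower and 6 higher (20.1% and 21.5% of all genes tested). Set against shWDR5, 29 of the 52 were lower with shKAT2B and 0 were higher (11.5% and 11.2% of all genes tested), the reverse of the members. Of 14 tested transcription factors linked to ribosomal protein genes 0 fell and 2 rose with shWDR5, Tbpl1 (0.40 ± 0.06, limma adjusted p = 0.00435) and Myc (0.37 ± 0.09, limma adjusted p = 0.0345), a known activator of both kinds of gene. Adding the library set gave 1 lower and 6 higher in this list.

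The 77 mitochondrial ribosomal protein genes, which serve the separate ribosome of that organelle, showed 1 lower (Mrpl14, -0.32 ± 0.09) and 0 higher with shWDR5, a median of -0.03. Beside this and the following lists, 6.17% of all genes tested fell with shWDR5 and 4.69% rose. Of 41 translation initiation factors 3 fell (Eif4g3, -0.42, Eif4e3, -0.31, and Eif3d, -0.27) and 1 rose (Eif5a2, 0.54). Of 9 tested elongation factors and Tpt1, several of which carry the same pyrimidine tract as the members, 1 fell (Eef2, -0.14 ± 0.04), and Fau, which encodes a further small subunit protein, differed by 0.08 ± 0.07. Among 22 genes of mTORC1 and of proteins that bind such messages, 2 fell (Eif4ebp2, -0.84, and Deptor, -0.59) and 2 rose (Sesn2, 0.51, and Ddit4, 0.45). Gas5 (0.40 ± 0.08) and Snhg5 (0.33 ± 0.08), host transcripts of small nucleolar RNAs that carry the same tract, were the 2 of 4 tested hosts that rose with shWDR5. Both also rose with shKAT2B (0.43 and 0.28), where no member was called. With the library set as a term, the counts with shWDR5 were 4 lower and 1 higher for the mitochondrial genes, 5 lower and 4 higher for the initiation factors, 1 lower and 0 higher for the elongation factors, 2 lower and 4 higher for the mTORC1 list, and 1 lower and 2 higher for the host transcripts. In that fit 18.1% of all genes tested fell and 18.8% rose.

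**Figure D5:**
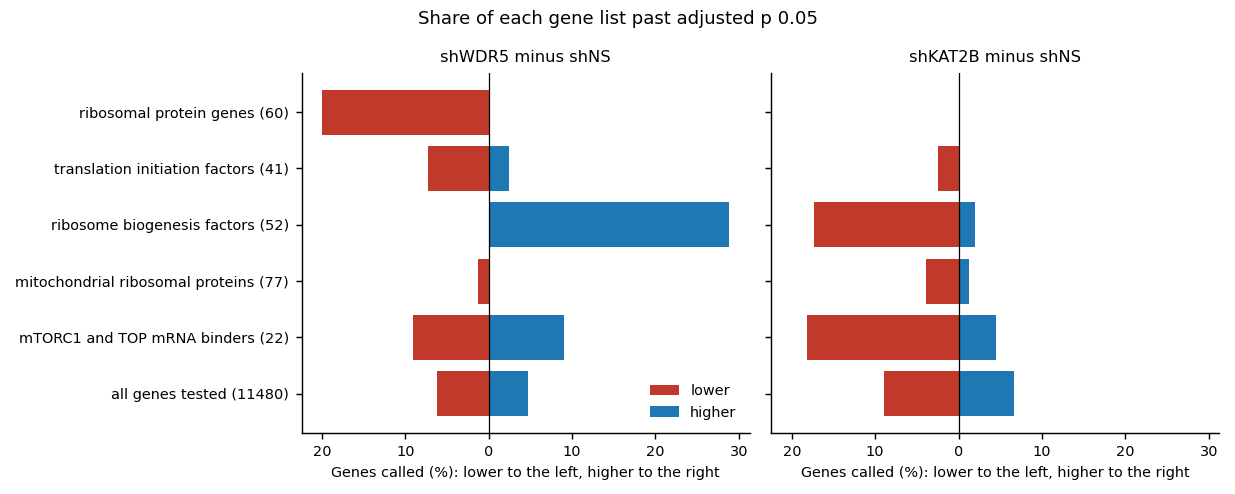
Percent of the tested genes of each list with an adjusted p below 0.05, lower (to the left) and higher (to the right), with shWDR5 and with shKAT2B against shNS; numbers of genes are in parentheses, and both panels use the same shNS libraries. With shWDR5 the members have 20% lower and the biogenesis factors 15 of 52 higher, beside 6.17% and 4.69% of all genes tested.

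Markers of other liver cells were read beside the members. With shWDR5 0 of 15 tested Kupffer cell and leukocyte markers passed, with a median of 0.25, and 0 of 14 endothelial markers, with a median of 0.27. When the library set was a term, 6 of the 15 and 3 of the 14 rose, with a median of 0.16 for each list. In that fit 18.8% of all genes tested rose. With shKAT2B 0 of 15 and 2 of 14 rose, with medians of 0.43 and 0.30, where 6.66% of all genes tested rose. With the library set as a term 10 and 7 rose, where 21.5% of all genes tested rose. Their summed intensities overlapped between arms, from 8516 to 14199 with shNS and 10614 to 15243 with shWDR5 for the Kupffer cell list and from 4785 to 6614 and 5447 to 7277 for the endothelial list. With shKAT2B they were 9877 to 18148 and 5015 to 8000. Between the library sets the sums did not overlap: the Kupffer cell list summed to 8516 to 10614 in the first set and 12885 to 18148 in the second, the direction in which 37 members moved. The stellate cell and fibroblast list ran the other way, with 9835 to 9995 in the first set and 7249 to 7588 in the second. Of 3 tested cholangiocyte markers 2 fell with shWDR5, Krt19 (-0.80 ± 0.21) and Krt7 (-0.46 ± 0.11), where 6.17% of all genes tested fell. No marker was at 0, since the lowest value in the table was 4.47. The part of these markers in the members' differences was not tested.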

How the data were processed

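The deposited value table holds 1 intensity per probe set and library on a linear scale; per the submitters' processing notes it was made with Affymetrix Expression Console 1.1.1, and how the libraries were normalized is not stated there. Of 26913 features, 17873 carried 1 gene symbol in the platform annotation, 1128 several and 7912 none, and the features with 1 symbol gave 16401 genes. All 61 members matched RefSeq by gene ID. Columns of other series numbered 0.

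Values were taken as log2(intensity + 1), so fold changes of low genes are understated. Per gene the probe set with the highest mean was kept, and the lowest 30% of genes by mean were left out. Limma 3.58.1 in R 4.3.3 (lmFit, eBayes with trend) was fitted across 11480 genes with arm and treatment as terms (6 residual degrees of freedom) or with the 6 groups, and p-values were adjusted by Benjamini-Hochberg over all of them. "Fell", "rose" and "called" mean an adjusted p below 0.05. The scripts were tested on simulated data. Depth has no meaning for arrays, and the number of libraries limits the precision.

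Named per comparison are up to 10 called members with the lowest and up to 10 with the highest difference; where fewer than 5 were called in a direction, the 3 with the smallest p; the paralogs; the targets; and up to 4 called genes per list with the largest change. The remaining called members, Rps10 and Rpl38, and other members given as examples were chosen after their values were seen. The members and the lists were chosen with earlier results of these data known. Same-lettered libraries of the 4 groups with A and B deviated together (6 correlations of 0.72 to 0.84), so the letters were taken to pair them, and fits with the letter as a block are given where they change a count by over 1.5 times. The alternatives were quantile normalization, median centring, 2 filters, the mean of a gene's probe sets, no trend, 2 pseudocounts, the replicate block, the library set as a term or the second set alone, only 2 arms, and each library left out. Motifs were searched in Python 3.11.15, and figures were drawn with matplotlib 3.10.9.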

Additional observations from a re-analysis of the deposited data

How the results depend on the processing

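Across up to 22 alternative fits each, no member chosen by the naming rule reversed its direction in its comparison. Other members given as examples were not followed through all of these fits, and some with differences near 0 did change sign: with shWDR5, Rps19 was -0.07 and 0.08 in the second set alone, and Rplp1 0.04 and -0.02. In the same fits the members' medians moved by less than the spread of 0.09 between replicate libraries. The counts of members called did move, and so did the shares of all genes tested. With shWDR5 6.17% of all genes fell, and 15.7% with the replicate block, 18.1% with the library set and 14.8% in the second set alone. The shares that rose were 4.69%, 11%, 18.8% and 13.1% in that order. Shares for the other processing choices and with 1 library left out are not given here, so those counts are not a result about the members alone. Members lower with shWDR5 numbered 12, and 7 with libraries centred on their median or with only the 2 arms, 21 with the replicate block, 30 with the library set as a term, 28 in the second set alone, and 5 to 11 with 1 library left out. Members higher with shWDR5 numbered 0, and 1 after quantile normalization, 7 with the replicate block, 6 with the library set, 1 in the second set alone, and 0 to 1 with 1 library left out. For shKAT2B against shNS, 0 were lower, and 2 with the library set or in the second set alone. None (0) was higher, and 3 after quantile normalization, 1 after median centring, 4 with the replicate block, 5 with the library set and 1 in the second set alone. Between the knockdowns, 19 members were higher with shKAT2B, 31 with the library set, 30 in the second set alone and 11 to 21 with 1 library left out. There 1 was lower, and 0 with the lowest 50% of genes left out, 2 with the replicate block, 4 with the library set, 2 in the second set alone and 0 to 1 with 1 library left out. Glucagon gave 0 in every alternative. Among single members lower with shWDR5, Rpl6 missed in 1 of 22 fits (adjusted p = 0.0518), Rpl36a in 2, Rpl38 in 4, Rps4x in 8, Rps3a1 in 10, Rpl27 in 11, and Rps15a and Rps10 in 13 each. The causes were not tested, except that fewer libraries or fewer genes enter some fits by construction. Groups of 1 or 2 libraries limit what can be detected, and groups of 1 were assumed to vary like the others.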
